A study of Mus musculus with 4 samples.

Results

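The 7SK small nuclear ribonucleoprotein and the kinase it holds, P-TEFb, were followed through long-read RNA sequencing of the embryonic mouse pallium. The 7 genes listed for the complex were Rn7sk, the 7SK RNA itself; Mepce, which caps it; Larp7, which binds its 3′ end; Hexim1, the kinase inhibitor; and Cdk9, Ccnt1 and Ccnt2, the kinase and cyclin subunits of P-TEFb. They were matched by symbol to the Ensembl identifiers of a table of 16449 genes. Rows of counts were found for 6 of them. Hexim1 was not analysed here. The group was chosen because of a measured value, the difference in Rn7sk counts between libraries labelled Tut1 knockout and WT libraries. The values of its members in that comparison are therefore given as a description, without a test.

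7SK RNA is a short nuclear RNA made by RNA polymerase III. MEPCE adds a methyl cap to its 5′ end and LARP7 binds the run of uridines at its 3′ end, which protects the RNA from decay. HEXIM proteins bound to its 5′ hairpin hold P-TEFb, a pair of CDK9 and a cyclin T, in an inactive state. Once released, P-TEFb phosphorylates RNA polymerase II and the factors that pause it near promoters, so that elongation can proceed.

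There were 4 libraries of dorsal and medial palliums taken at E11.5, 2 labelled WT and 2 labelled Tut1 knockout. The genotype of the latter was Tut1 f/f with Emx1-Cre. The Tut1 gene encodes the terminal uridylyl transferase of U6 snRNA, another product of RNA polymerase III. In the knockout design, Cre expressed from the Emx1 locus recombines the floxed Tut1 allele in neural stem cells of the dorsal and medial pallium, and cells outside that lineage, such as blood, vessel and microglial cells, keep an unrecombined allele. According to the study, the floxed allele is present in both groups, so that WT stands for the absence of Cre. The number of embryos behind each library is not stated, and the spread between 2 libraries of a group may be technical.

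The deposited values were raw read counts per gene of poly(A)-enriched RNA, with totals of 305642 to 397150 per library. These totals are a small part of the reads that the study states for the libraries, and what became of the rest is not given. Levels are given in CPM, counts per 1000000 of the library, with library sizes taken over the tested genes and scaled by the trimmed mean of M-values. Genes were tested with the quasi-likelihood test of edgeR, and a gene was called at an adjusted p below 0.05. Of 5878 genes with enough counts to be tested, 121 were called, 82 of them higher and 39 lower in the libraries labelled Tut1 knockout. Leaving out replicate 1 of that label left 3 called, and DESeq2 called 8. Wherever 4 counts are given in a row, they stand in the order WT replicates 1 and 2, then the libraries labelled Tut1 knockout, replicates 1 and 2.

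The libraries differed in more than their label. Tut1 itself had 6 and 11 counts in WT against 29 and 25 counts in the libraries labelled Tut1 knockout, which gave a fitted log2 difference of 1.71 ± 0.40 (SE, adjusted p = 0.0113). This call was lost without WT replicate 1 (1.39), without either library labelled Tut1 knockout (1.80 and 1.63) and with DESeq2 (1.74). The targeted gene was thus read more often under the knockout label, and every direction below refers to the label only. The study states that knockout cells lack exon 2 in Tut1 mRNA, and in neural stem cells it measured deletion by that exon. Counts per gene cannot show whether reads lacked the exon between the loxP sites. The label of the tissue was met in that Emx1, Emx2, Lhx2 and Pax6, genes of the forebrain and pallium, had counts in all 4 libraries. Xist, expressed in females, had 64 counts in WT replicate 1 and 0 in the other 3 libraries. Among 8 pallial progenitor markers, all with counts, the summed level was 1996 and 1667 CPM in WT and 1026 and 1174 CPM in the libraries labelled Tut1 knockout. Lhx2, with 348, 272, 106 and 106 counts, held most of that difference and was the 1 marker of this list called lower. Emx1, at the locus that drives Cre, had 6, 7, 1 and 2 counts and Emx2 had 48, 62, 23 and 31, while Pax6 had 137, 119, 132 and 93 counts and Nes 103, 110, 111 and 89. For 10 markers of neurons and intermediate progenitors, the summed level was 1402 and 1313 CPM against 2161 and 1942 CPM. Mapt had 33, 43, 162 and 101 counts, Dcx 36, 36, 86 and 70, and Reln 0, 0, 4 and 3. For Tubb3 (36, 33, 55 and 23), Map2 (249, 247, 318 and 206) and Neurod1 (1, 4, 2 and 2), counts overlapped between the groups. The markers of microglia, 8 of 8 with a count, summed to 96.9 and 106 CPM against 409 and 337 CPM, and all 4 that could be tested were called higher. Csf1r, the receptor these cells depend on, had 16, 20, 58 and 34 counts and Cx3cr1 had 6, 6, 32 and 27, so that both were also read in WT. The complement genes C1qa (0, 0, 1 and 2), C1qb (0, 1, 0 and 0) and C1qc (0, 1, 5 and 0) were near 0 in both groups. For 8 markers of meningeal mesenchyme and vessels, the sums were 124 and 268 CPM against 499.6 and 351 CPM, and for 8 of ventral telencephalon, 6 with a count, 15.1 and 72.6 CPM against 186 and 97.2 CPM. Those of primitive red cells were at 1324 and 1740 CPM against 2137 and 1434 CPM. Of the tested markers, 2 of 7 for neurons, 1 of 2 for ventral telencephalon and 1 of 4 for mesenchyme and vessels were called higher, and 1 of 5 for red cells was called lower. The part of these differences in the results below was not tested. In bulk tissue, fewer cells of a type and less RNA per cell cannot be told apart.

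Rn7sk lay on the minus strand of chromosome 9 (GRCm38), from 78175303 to 78175633, as a single RNA of 331 nt that overlapped no other annotated gene. Its 5′ stretch and its 3′ end are shown because these carry the sites that HEXIM and LARP7 are known to use. The sequences are those of GENCODE M21 transcripts, with T written for U. In the 5′ stretch, capitals mark GATC, the repeated motif of the hairpin that HEXIM binds. Both strands of GATC read the same, and the matches did not overlap.

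Rn7sk, positions 1 to 100: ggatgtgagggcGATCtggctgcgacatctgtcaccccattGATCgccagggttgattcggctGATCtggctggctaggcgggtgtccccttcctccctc
Gm25288, positions 1 to 80: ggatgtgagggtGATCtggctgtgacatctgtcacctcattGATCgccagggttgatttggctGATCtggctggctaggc

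Gm25288 is a 7SK-like gene on chromosome 1, from 176793956 to 176794220 on the plus strand, and it is shown because it also had counts. The first 100 bases of Rn7sk held 3 copies of GATC, and the first 80 bases of Gm25288 held 3 as well. Among 1452 annotated misc_RNA and snRNA genes unlike Rn7sk that were at least 100 nt long, 22.0% held the motif at least once in their first 100 bases and 0.138% held it 3 times or more. Among 240 such genes similar to Rn7sk, 74.2% held the motif at least once and 24 genes held it 3 times or more.

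In the 3′ ends, capitals mark the terminal run of T, the part that LARP7 and the related La protein bind in such RNAs. U6 snRNA is shown because its tail is the known substrate of Tut1, and Y3 RNA (Rny3) because it is another polymerase III transcript with counts here. The annotated genes are at chr17:13432033-13432139 on the minus strand for U6 (Rnu6) and chr6:47781624-47781725 on the plus strand for Rny3, both on GRCm38.

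Rn7sk, positions 272 to 331: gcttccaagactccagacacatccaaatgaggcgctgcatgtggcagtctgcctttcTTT
Rnu6, positions 48 to 107: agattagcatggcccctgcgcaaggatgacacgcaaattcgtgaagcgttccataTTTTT
Rny3, positions 43 to 102: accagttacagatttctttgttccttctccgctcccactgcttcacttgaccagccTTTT
Gm25288, positions 206 to 265: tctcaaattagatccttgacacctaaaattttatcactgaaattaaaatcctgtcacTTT

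The annotated Rn7sk ended in 3 T, U6 in 5 and Y3 RNA in 4. A run of at least 3 T closed 34.8% of the same 1452 genes and 17.5% of the 240 similar to Rn7sk. The longest run of A within Rn7sk was 3 bases, so the annotated RNA held no internal stretch like the 23 A of Bc1, a brain cytoplasmic RNA of polymerase III. How 7SK molecules came to be read in poly(A)-enriched RNA was not tested.

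Rn7sk was nearly absent from the WT libraries and present in both libraries labelled Tut1 knockout. It had 0 and 1 counts in WT against 13 and 14 counts in the libraries labelled Tut1 knockout. In CPM the levels were 0 and 2.79 in WT against 34.5 and 48.6, and the groups did not overlap. The 0 in WT replicate 1 allows up to 3 counts, or 9.09 CPM. Summed over libraries, 1 count in WT against 27 in the libraries labelled Tut1 knockout gave a ratio of 28.0, with an exact 95% interval of 4.61 to 1145 that covers counting error only. Since Rn7sk was chosen for this difference, the interval is a description and not a test. The fitted log2 fold change was 4.50 ± 0.89 (SE, n = 2 libraries per group), a value that depends on the prior count because WT was close to 0. The library that stands apart by Xist had no Rn7sk count, and without it the log2 fold change was 3.69 ± 1.06. It was 6.77 ± 1.71 without WT replicate 2, which held the 1 WT count. Of the libraries labelled Tut1 knockout, leaving out replicate 1 gave 4.74 ± 1.17 and leaving out replicate 2 gave 4.27 ± 1.23. DESeq2 gave 4.84 ± 1.67.

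**Figure D1:**
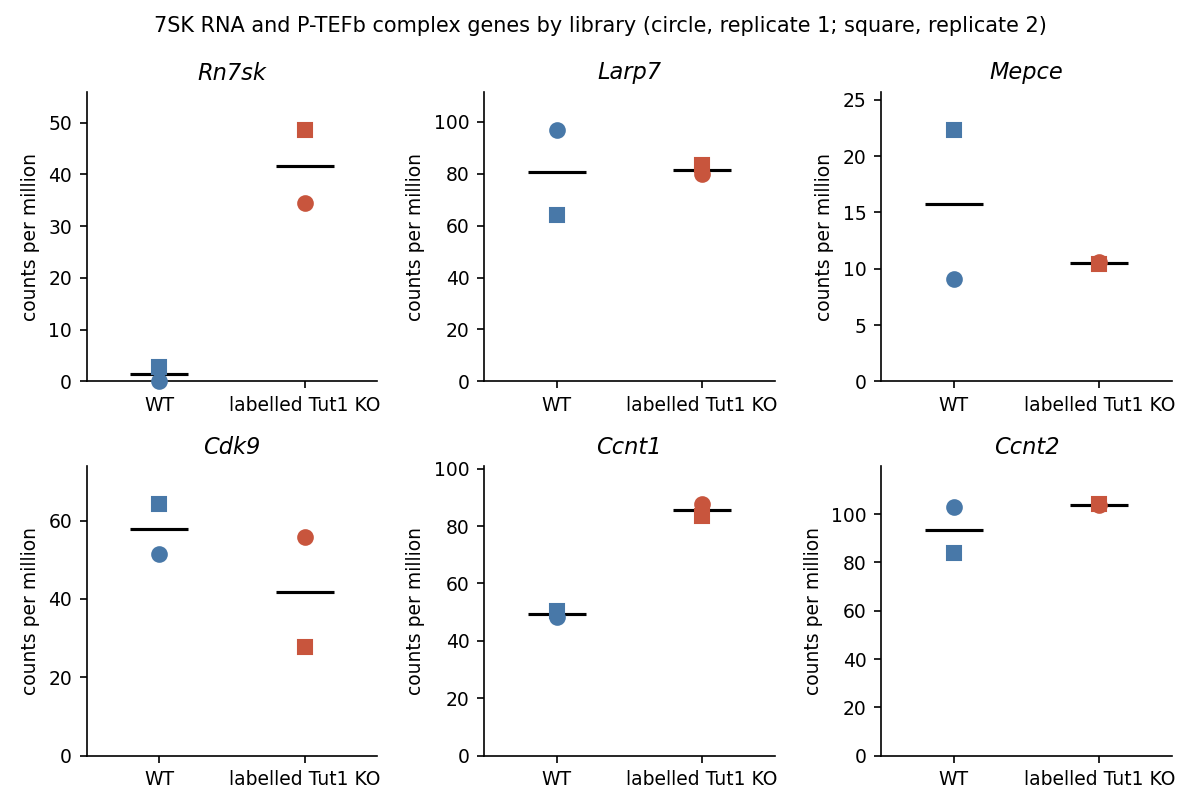
Level of each of the 6 members with counts, in CPM (y axis from 0), in 2 WT libraries (blue) and 2 libraries labelled Tut1 knockout (red), with a circle for replicate 1, a square for replicate 2 and a line at the mean. Rn7sk lay at 0 and 2.79 CPM in WT and at 34.5 and 48.6 CPM in the libraries labelled Tut1 knockout, while the groups overlapped for Larp7, Mepce and Cdk9.

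Reads of 7SK can be shared with its copies. Among annotated misc_RNA and snRNA genes, 248 resembled Rn7sk, of which 5 matched it at 95% identity or more over at least 200 nt. Counts could thus have been exchanged between Rn7sk and these copies, and how the authors treated reads with several matches is not stated. In the table, 11 of the 248 had a row and 6 had a count in any library. Gm26315, 99.6% identical over 238 nt and lying on chromosome 2, had 1 and 1 counts in WT against 0 and 2 in the libraries labelled Tut1 knockout. Gm25288, 79.6% identical over 240 nt, had 4 and 3 counts in WT against 13 and 8 in the others, a log2 fold change of 1.60 ± 0.61 when no genes were filtered. It was singled out after its values were seen. The 11 copies with a row summed to 21.2 and 14.0 CPM in WT and 42.5 and 52.1 CPM in the libraries labelled Tut1 knockout. Most of that sum was Gm25288, which lies within Cep170 on the opposite strand. Cep170 had 62, 61, 79 and 57 counts. This was 188 and 170 CPM in WT against 210 and 198 CPM in the libraries labelled Tut1 knockout, a log2 fold change of 0.19 ± 0.23.

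Counts of the genes next to Rn7sk overlapped between the groups. C920006O11Rik, a long non-coding RNA that starts 281 bp away, had 0, 0, 2 and 0 counts. Ick, a protein kinase gene whose end lies 3196 bp away, had 25, 47, 38 and 31 counts, a log2 fold change of −0.00 ± 0.29. Gsta4, a glutathione transferase gene on the other side, had 1, 0, 0 and 0 counts.

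Transcript levels of both proteins that stabilise 7SK overlapped between the groups. Larp7, on the minus strand of chromosome 3 from 127536714 to 127553349, had 32 and 23 counts in WT against 30 and 24 in the libraries labelled Tut1 knockout. This was 80.6 ± 23.1 CPM against 81.5 ± 2.57 CPM (SD, n = 2), with the WT values on either side of the others. The log2 fold change was 0.02 ± 0.31, and it changed sign with the WT library left out, from 0.33 without replicate 1 to −0.26 without replicate 2. The ratio of summed counts was 1.02, with a 95% counting interval of 0.686 to 1.51. LARP7 also guides the methylation of U6 snRNA, so the gene serves both RNAs. The Mir302 and Mir367 genes lie within Larp7 on the opposite strand.

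Mepce, which carries the cap enzyme, lay on the minus strand of chromosome 5 from 137781906 to 137787655. Its counts of 3 and 8 in WT against 4 and 3 in the libraries labelled Tut1 knockout were too low for the test. Levels were 15.7 ± 9.37 CPM against 10.5 ± 0.149 CPM, and the groups overlapped. With no filter the log2 fold change was −0.58 ± 0.72, and the 95% counting interval of the ratio of summed counts was 0.217 to 1.86.

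The 3 P-TEFb subunits had between 8 and 39 counts in each library. Ccnt1, one of the cyclins that activate CDK9, lay on the minus strand of chromosome 15 from 98538689 to 98570923. It had 16 and 18 counts in WT against 33 and 24 in the libraries labelled Tut1 knockout. Its level was 49.4 ± 1.28 CPM against 85.5 ± 3.07 CPM, so the groups did not overlap. The log2 fold change was 0.79 ± 0.34, and it lay between 0.70 and 0.85 in all 11 other settings. The ratio of summed counts was 1.74, with a 95% counting interval of 1.12 to 2.74. Because 9330020H09Rik overlaps Ccnt1 on the opposite strand and use of strand is not stated, reads of both cannot be told apart.

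Ccnt2, the other cyclin partner of CDK9, lay on the plus strand of chromosome 1 from 127774164 to 127808061. Its counts were 34 and 30 in WT against 39 and 30 in the libraries labelled Tut1 knockout. Levels of 103 and 83.8 CPM in WT stood beside 103.6 and 104 CPM, so that the groups were separated by less than 1 count. The log2 fold change was 0.16 ± 0.28, with 0.30 without WT replicate 1 and 0.0013 without WT replicate 2. Ccnt1 made up 32.0% and 37.5% of the reads of both cyclins in WT (exact 95% intervals 19.5 to 46.7 and 24.0 to 52.6) and 45.8% and 44.4% in the libraries labelled Tut1 knockout (34.0 to 58.0 and 30.9 to 58.6). These intervals overlapped in every pair of libraries.

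Cdk9, the kinase of the pair, lay on the minus strand of chromosome 2 from 32705784 to 32713076. It had 17 and 23 counts in WT against 21 and 8 in the libraries labelled Tut1 knockout. The level was 57.9 ± 9.01 CPM against 41.8 ± 19.8 CPM, and the first library labelled Tut1 knockout fell between both WT values. The log2 fold change of −0.42 ± 0.39 rested on replicate 2 of the Tut1 knockout label. It was −1.05 without replicate 1 and −0.06 without replicate 2. The ratio of summed counts had a 95% counting interval of 0.449 to 1.24.

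Rn7sk, Ccnt1 and Ccnt2, 3 of the 5 tested members, had both libraries labelled Tut1 knockout above both WT libraries, and 22.1% of all tested genes had this order. Since the comparison chose the group, nothing is read from that count. The 5 protein genes together summed to 309 and 285 CPM in WT and 338 and 309 CPM in the other libraries. The median log2 fold change of the 4 protein genes tested was 0.09, beside −0.01 over all tested genes.

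**Figure D2:**
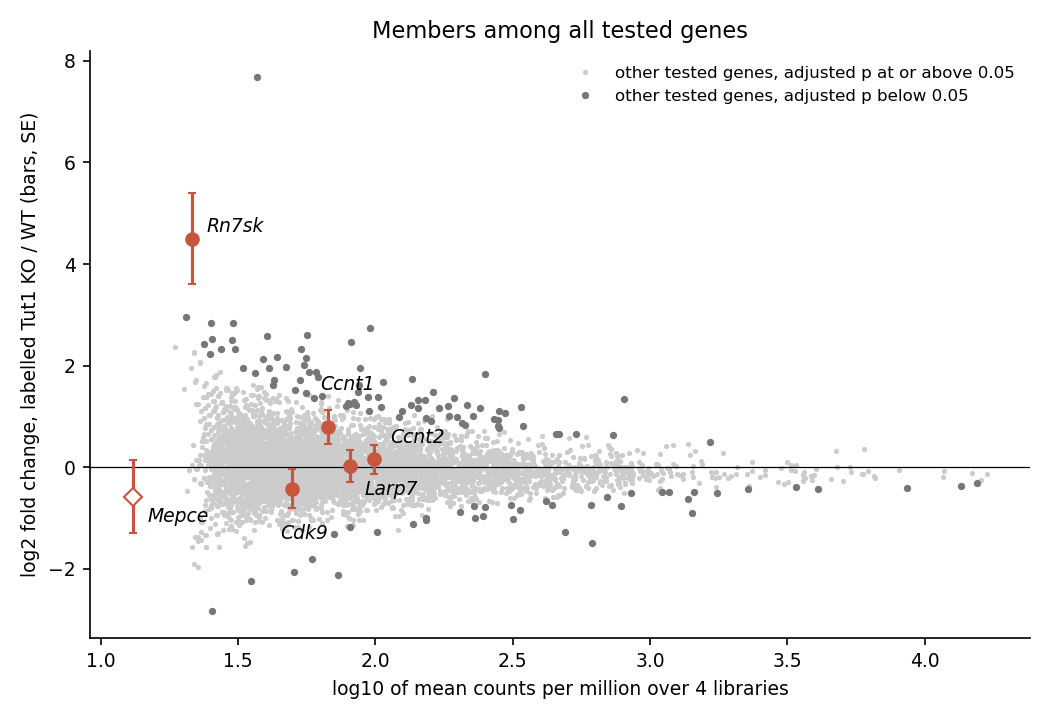
Log2 fold change between libraries labelled Tut1 knockout and WT (y axis) against the log10 of the mean CPM over 4 libraries (x axis), for all tested genes (grey, darker where the adjusted p was below 0.05) and the members (red, bars for SE). Rn7sk was at 4.50, below 1 other gene only, the antisense RNA Dlx1as, while the protein genes were between −0.58 (Mepce, open diamond, from the fit with no filter) and 0.79 (Ccnt1).

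Levels of different genes were compared in CPM per kb of the longest annotated transcript. In WT the order was Larp7 (38.0 ± 10.9, SD, n = 2), Cdk9 (16.2 ± 2.53), Ccnt2 (12.2 ± 1.78), Ccnt1 (6.67 ± 0.173), Mepce (5.02 ± 3.00) and Rn7sk (4.22 ± 5.97). Larp7, Cdk9 and Ccnt2 each lay apart from the next in both libraries, while Ccnt1 overlapped with Mepce and Mepce with Rn7sk. In the libraries labelled Tut1 knockout, Rn7sk was first at 126 ± 30.1 CPM per kb. Larp7 followed at 38.4 ± 1.21, apart from both neighbours. Ccnt2 (13.6 ± 0.0513), Cdk9 (11.7 ± 5.56) and Ccnt1 (11.6 ± 0.415) followed, with Ccnt2 above Ccnt1 in both libraries and Cdk9 spanning both, and Mepce was last at 3.36 ± 0.0475. Without division by length Rn7sk was still last of 6 in WT, but 5 of 6 in the libraries labelled Tut1 knockout, so its first place rested on its short transcript. In the latter its mean of 41.6 CPM was not apart from the 41.8 CPM of Cdk9, since their libraries overlapped. The order of the protein genes rested on length too, since in CPM alone Ccnt2 came first in WT (93.4) before Larp7 (80.6), and Ccnt1 was 2 of 6 in the libraries labelled Tut1 knockout. As the reads were poly(A)-enriched, these values count 7SK molecules that entered such a library and not the 7SK of the cell.

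**Figure D3:**
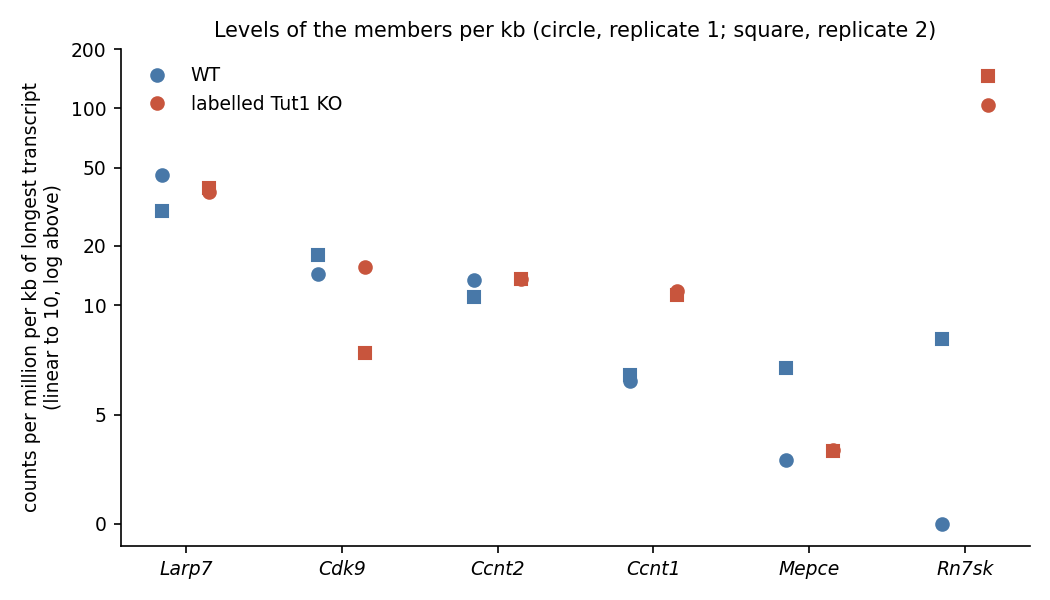
Level of each member in CPM per kb of its longest transcript (y axis, linear to 10 and log above), in order of the WT mean, with WT in blue and libraries labelled Tut1 knockout in red (circle, replicate 1; square, replicate 2). Rn7sk was last of the 6 in WT, at 0 and 8.44, and first in the libraries labelled Tut1 knockout, at 104 and 147.

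Other genes of the pathway came from 9 lists grouped by function. They held 147 genes, of which 123 had a row and 72 could be tested. Of these 72, 1 was called, Tut1 itself, as higher. Of all tested genes, 2.06% were called in either direction and 1.40% as higher. At an unadjusted p below 0.05 there were 9 of the 72, where 14.2% of all tested genes had such a p. DESeq2 called 0 of the 72. Of these 9, 3 were in the list of 7SK binding and release factors, 3 among structural RNAs, and 1 each among pausing factors, RNA polymerase III factors and tailing enzymes, which left 0 in the other lists. The median log2 fold change was 0.03 over the 72 genes.

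No gene that binds 7SK or frees P-TEFb from it was called among 13 tested of 14. Their median log2 fold change was −0.08, with 5 above 0. An unadjusted p below 0.05 was found for 3 of the 13, beside 14.2% of all tested genes. Jmjd6, an oxygenase known to act in the release of paused polymerase, had 41 and 33 counts in WT against 16 and 16 in the libraries labelled Tut1 knockout. Both libraries of that label lay below WT, and the fitted value of −1.15 ± 0.33 (log2) missed the threshold (edgeR, adjusted p = 0.056). Without WT replicate 2 it was past it (adjusted p = 0.0235). Mettl16, the methyltransferase of U6 snRNA, had 69 and 59 counts against 106 and 83 (log2 fold change 0.61 ± 0.21, adjusted p = 0.137). Hexim2, the relative of Hexim1, had 3, 6, 5 and 5 counts and was not tested.

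The elongation machinery that P-TEFb joins or acts on had no called gene either. Of the super and little elongation complexes, 5 of 13 genes could be tested, with a median of 0.02. Aff4, the scaffold of the super elongation complex, had 103, 119, 137 and 119 counts (log2 fold change 0.26 ± 0.18, edgeR adjusted p = 0.571). Mllt1, a subunit that reads acetylated histones, had 18, 18, 15 and 7 (−0.66 ± 0.41, adjusted p = 0.512). Among 15 tested of 20 pausing and elongation factors, the median was −0.05. Nelfe, a subunit of the pausing factor NELF and a substrate of P-TEFb, had 43 and 49 counts in WT against 35 and 19 in the others (−0.72 ± 0.28, adjusted p = 0.199). Tcea1, the elongation factor TFIIS, had 38, 32, 48 and 48 (0.51 ± 0.27, adjusted p = 0.401). Polr2a, the largest subunit of RNA polymerase II, had 131, 135, 130 and 95 counts.

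Of the other transcriptional cyclins and kinases, 8 of 12 were tested, with none called and a median of −0.05. Ccnl2, a cyclin of the splicing-related CDK11, had 21, 23, 16 and 13 counts (−0.55 ± 0.37, edgeR adjusted p = 0.561). Cdk11b had 115, 100, 134 and 115 (0.27 ± 0.19, adjusted p = 0.58). Cdk12 and Cdk13, which also phosphorylate RNA polymerase II, were at −0.16 ± 0.28 and −0.23 ± 0.24.

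Of 16 inducible genes known for paused polymerase, 12 had a row and 5 had enough counts to be tested, with none called and a median of −0.03. Mycn, the Myc family gene of neural progenitors, had 15, 14, 11 and 6 counts (−0.72 ± 0.46, edgeR adjusted p = 0.527). Myc had 24, 20, 18 and 17 (−0.27 ± 0.36, adjusted p = 0.818). Jun, with 5, 4, 9 and 8 counts, and Egr1, with 4, 5, 12 and 3, were below the filter.

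Factors of RNA polymerase III and of the promoter type from which 7SK and U6 are made also showed no called gene, with 10 of 22 tested and a median of 0.14. Maf1, the repressor of RNA polymerase III, had 29 and 32 counts in WT against 50 and 37 in the libraries labelled Tut1 knockout (0.56 ± 0.27, edgeR adjusted p = 0.341). Polr3f, a polymerase III subunit, had 13, 8, 19 and 16 (0.78 ± 0.42, adjusted p = 0.415).

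The enzymes that trim or tail small RNA ends held the only call, Tut1, among 10 tested of 17, with a median of 0.06. Zcchc8, a subunit of the nuclear exosome targeting complex, had 8, 10, 18 and 14 counts (0.87 ± 0.43, edgeR adjusted p = 0.359). Usb1, the exonuclease that trims the U6 tail, had 11, 2, 6 and 12 counts (0.52 ± 0.62, adjusted p = 0.797). In the La-related family, 4 of 6 were tested with a median of 0.07. Ssb, the La protein that binds nascent polymerase III transcripts, had 90, 95, 105 and 67 counts (−0.06 ± 0.20, adjusted p = 0.932), and Larp4b had 16, 11, 14 and 14 (0.10 ± 0.42, adjusted p = 0.948). The sign of both changed in other settings.

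**Figure D4:**
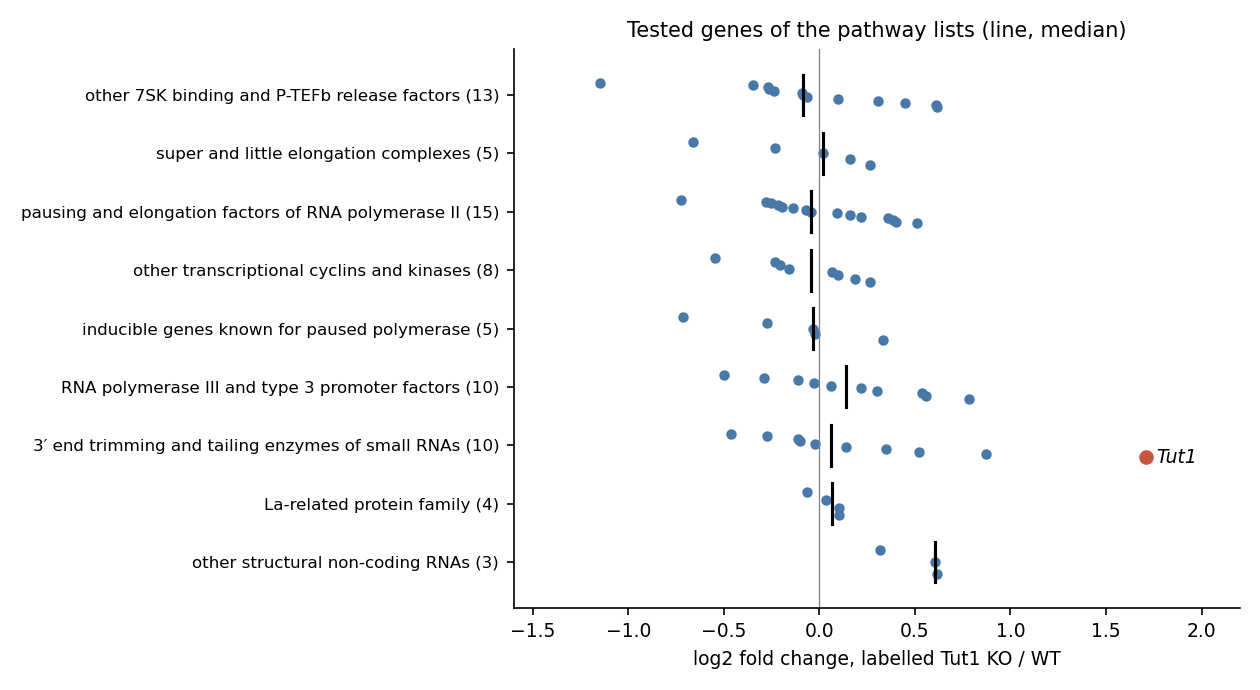
Log2 fold change between libraries labelled Tut1 knockout and WT (x axis) of each tested gene in 9 lists (y axis, number tested in parentheses), with a line at each median. Tut1 (red), at 1.71, was the 1 gene with an adjusted p below 0.05, and the medians were between −0.08 and 0.14 except for structural RNAs at 0.60, of which 3 were tested.

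Other RNAs that normally lack a long poly(A) tail were read beside Rn7sk. Of 28 structural RNAs listed, 10 had a row and 3 could be tested, of which 0 were called by edgeR or DESeq2. CT010467.1, annotated as ribosomal RNA, had 1438 and 2197 counts in WT against 2333 and 2113 in the libraries labelled Tut1 knockout, and its log2 fold change of 0.37 ± 0.11 did not pass (adjusted p = 0.0602). It overlaps other genes on the opposite strand. The mitochondrial ribosomal RNAs mt-Rnr1 and mt-Rnr2 were at 0.60 ± 0.18 (adjusted p = 0.0626) and 0.32 ± 0.12 (adjusted p = 0.162). mt-Rnr1 had 115 and 206 counts in WT against 288 and 184, and was past the threshold when libraries were scaled by total counts only or when no genes were filtered, and both mitochondrial RNAs were past it without WT replicate 2 (log2 fold changes of 1.00 and 0.62). Without WT replicate 1, the library that stands apart by Xist, they were at 0.28 (adjusted p = 0.696) and 0.048 (adjusted p = 0.946). Bc1 had 39, 59, 102 and 45 counts (0.61 ± 0.26, adjusted p = 0.235). Gm22711 (ENSMUSG00000105884), a snoRNA gene, had 54, 86, 78 and 66 counts (0.10 ± 0.23, adjusted p = 0.903).

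Other small polymerase III transcripts were low in both groups. Rny3 had 6 and 11 counts in WT against 6 and 4 in the libraries labelled Tut1 knockout, and Rny1 had 1, 3, 1 and 2. Vaultrc5, a vault RNA, had 3, 9, 4 and 2, and Rmrp, the RNA of RNase MRP, had 8, 10, 3 and 8. Summed over 109 snRNA genes, the level was 142 and 117 CPM in WT and 162 and 233 CPM in the libraries labelled Tut1 knockout. None of these genes had enough counts to be tested, and Rnu6 had no row, so the sum does not include it. The 126 snoRNA genes were at 342 and 447 CPM against 356 and 420.3 CPM. Apart from Rn7sk, 36 misc_RNA genes, which include 7SK-like copies, were at 69.7 and 97.8 CPM against 90.4 and 125 CPM. The 22 mitochondrial tRNA genes were at 1187 and 1321 CPM against 1013 and 1115 CPM. The mRNAs of 56 replication-dependent histone genes, which end in a stem-loop, were at 1923 and 1712 CPM against 1350.0 and 1382 CPM. Sums for histone genes and mitochondrial tRNA were thus lower in both libraries labelled Tut1 knockout than in WT, the sum for snRNA was higher in both, and the other classes overlapped except 7SK-like copies and ribosomal RNA. For the latter, the second WT library at 6195 CPM lay just below the first library labelled Tut1 knockout at 6248 CPM. The 134 tested genes with a longest transcript under 500 nt, the length class of Rn7sk, had a median log2 fold change of −0.07.

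**Figure D5:**
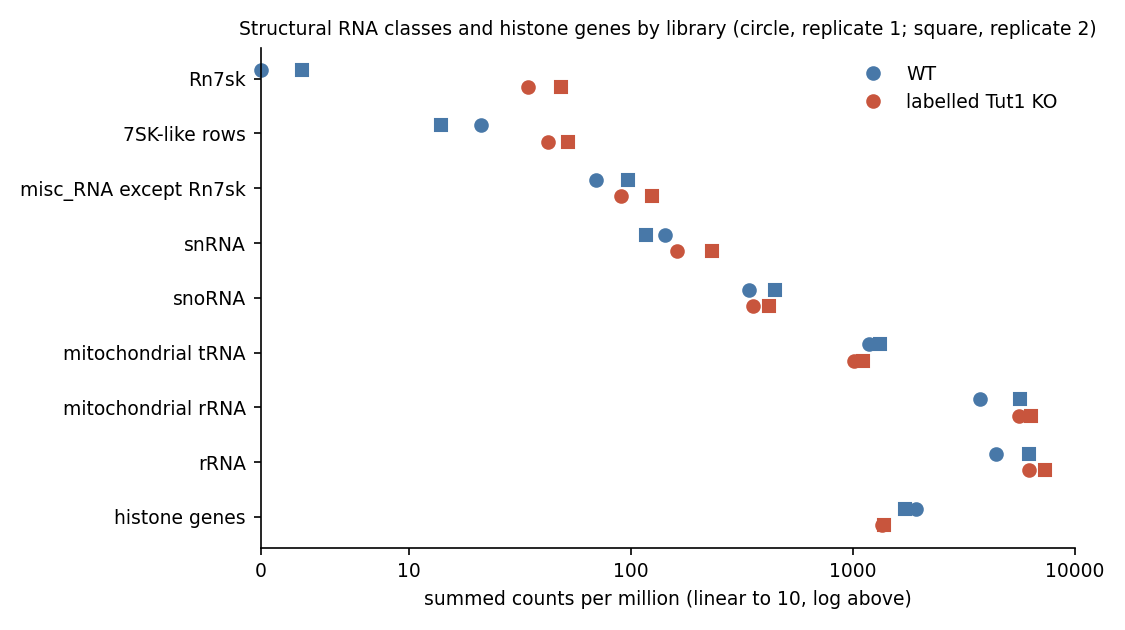
Summed CPM (x axis, linear to 10 and log above) of Rn7sk, its copies and other RNA classes (y axis) in WT (blue) and in libraries labelled Tut1 knockout (red), with a circle for replicate 1 and a square for replicate 2. Rn7sk was at 0 and 2.79 CPM against 34.5 and 48.6 CPM, while snoRNA overlapped and histone genes were at 1923 and 1712 against 1350.0 and 1382 CPM.

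The genes with the profile most like that of Rn7sk were found from the Euclidean distance between centred log2 CPM values over the 4 libraries. A prior count of 2 was added, which narrows differences of genes with few counts. They were Stk19 (distance 0.50), Chd5 (0.65), Cbln2 (0.71), Pbx3 (0.76) and Tyrobp (0.79). Each had few counts in WT and more in both libraries labelled Tut1 knockout, as the choice required. Their fitted log2 fold changes ran from 2.47 (Chd5) to 2.84 (Pbx3), below the 4.50 of Rn7sk. Stk19 had 4, 13, 58 and 52 counts. Chd5, a chromatin remodeller of neurons, had 4, 13, 52 and 40. Cbln2, a secreted synaptic organiser, had 1, 4, 22 and 14. Pbx3, a homeodomain factor, had 2, 2, 14 and 15. Tyrobp, an adaptor protein of microglia, had 1, 4, 16 and 13.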

How the data were processed

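Long-read RNA sequencing of poly(A)-enriched RNA from dorsal and medial palliums gave 4 libraries, grouped by their titles as 2 WT and 2 Tut1 knockout. The authors aligned Nanopore reads with minimap2 to the Ensembl mouse transcriptome, used FLAIR, and deposited raw counts for 16449 genes, with no normalization. The labels name GRCm38. How isoforms were summed, how reads with several matches were assigned and whether strand was used are not given in the sources used here. Positions, symbols, transcript lengths and sequences were taken from GENCODE M21 (GRCm38), which matched 16436 identifiers.

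The test was run in edgeR 4.0.16 (R 4.3.3). filterByExpr (minimum count 10, minimum total 15) kept 5878 genes, TMM scaled the libraries, and the groups were tested by glmQLFit with glmQLFTest, two-sided, with Benjamini-Hochberg adjustment over all tested genes and a threshold of 0.05. Each SE was obtained as |log2 fold change| over the root of the F statistic. WT libraries totalled 361003 and 392579 counts, Tut1 knockout libraries 397150 and 305642. Counts were simulated for this comparison over 5878 genes with the same dispersion for every gene, so variation that differs by gene was not covered. On them, edgeR called 32.5% of 200 genes changed 2-fold and 87.5% of 200 genes changed 4-fold, and DESeq2 1.42.0 called 8.5% and 62.5%. Of the genes called there, 8.45% and 6.91% were false for edgeR, above the 5% that the threshold allows, and 0% for DESeq2. Counting intervals are exact (Clopper-Pearson at 95%) and cover counting error only, not the choice of the group by its Rn7sk counts.

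The members and gene lists were chosen with earlier results of these data known, as were the genes shown. The text names all members, Tut1, up to 4 genes past the threshold from each list (or the 2 of smallest p where fewer than 2 passed), up to 6 structural RNAs with a mean count of 10 or more, and the 5 genes with the profile nearest to Rn7sk. The choice of any other gene followed a look at its values. Copies of Rn7sk were found with blastn (e-value at most 1e-05). Alternatives were median-of-ratios factors, total counts only, no filter, DESeq2, a replicate block, removal of the length trend (loess, span 0.5), leaving out each library and, for levels, no division by length. DESeq2 without its independent filter was added after seeing the data, since Rn7sk had no adjusted p with it.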

Additional observations from a re-analysis of the deposited data

How the results depend on the processing

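A median tested gene had 19 to 25 counts per library, which limits what can be detected for the members. The main test called 121 genes, and the count was 8 with DESeq2, 9 with DESeq2 without its independent filter, and between 3 and 108 when 1 library was left out, with 75 without WT replicate 1, 3 without Tut1_KO replicate 1 and 35 without Tut1_KO replicate 2. Of the pathway genes, 1 was called, against 2 with total counts only and with no filter on low counts (Tut1 and mt-Rnr1), 0 with either form of DESeq2, and 0 to 5 without 1 library. The 5, without WT replicate 2, were Tut1, mt-Rnr1, mt-Rnr2, Jmjd6 and Hnrnpa2b1. Tut1 had adjusted p values of 0.00900 to 0.606 over its alternatives, and Jmjd6 of 0.0235 to 1.00. The log2 fold change of Rn7sk ranged from 3.69 to 6.77 over 11 alternatives, the ends being those without a WT library. In the libraries labelled Tut1 knockout its rank among 6 members went from 1 to 5 without division by length. Ssb was at 0.00038 with total counts only and at 0.053 without Tut1_KO replicate 2, against −0.06, and Larp4b was at −0.21 without WT replicate 2, 0.45 without WT replicate 1 and −0.08 without Tut1_KO replicate 2, against 0.10. The cause of these shifts was not tested. The replicate numbers showed no pairing (correlation of deviations −0.06), and the replicate block gave 76 called genes and a log2 fold change of 4.55 for Rn7sk. Mepce was below the filter, so its value was from 1 setting.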
